A study of Mus musculus with 15 samples.

Results

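The GIMAP proteins (GTPases of immunity-associated proteins) were examined as 8 mouse genes, Gimap1, Gimap3, Gimap4, Gimap5, Gimap6, Gimap7, Gimap8 and Gimap9, taken by gene symbol. The family was chosen with earlier results of these data known. All 8 were listed among the 11262 genes of the naïve and activated CD8+ T cell data and among the 11211 genes of the cytotoxic T lymphocyte (CTL) data. RNA sequencing was performed on 15 libraries in 5 groups of 3 biological replicates, all from LCMV-P14 TCR transgenic mice, whose CD8+ T cells carry a T cell receptor (TCR) for the gp33-41 peptide of lymphocytic choriomeningitis virus. Per the study's methods, the naïve and activated cells came from adult female mice. Naïve cells were sorted directly from lymph nodes as CD8+ T cells with the surface markers of naïve cells, CD44 low among them. The other cells of the same pools, each made from 3 mice, received gp33-41 (100 ng/ml) together with IL-2 (20 ng/ml) and IL-12 (2 ng/ml), and after 24 h live CD8+ cells were sorted. This was done either without the inhibitor (TCR, with DMSO as vehicle) or with 10 µM IC87114, which inhibits phosphoinositide 3-kinase p110δ (TCR + PI3Kdi). CTL were activated for 48 h and expanded for 4 days in 20 ng/ml IL-2, and were then washed and given the same IL-2 again or none for 24 h. No library measures IC87114 in naïve cells or in CTL.

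GIMAP proteins are small GTP-binding proteins, found mainly in lymphocytes, that share a guanine nucleotide-binding domain with plant proteins induced by avirulent pathogens. Several members sit on internal membranes of the cell, and mice lacking some of them lose peripheral T cells, which has tied the family to lymphocyte survival. Gimap5 is best known for the lymphopenia that follows its loss in rats and mice, and Gimap1 for its need in mature T and B cells. Gimap3 is a close relative of Gimap5 with a membrane anchor. Gimap4 has been linked to T cell death, Gimap6 to autophagy through the GABARAP proteins, and Gimap7 to GTP hydrolysis by dimers. Gimap8 is the largest member and carries several GTP-binding domains. Gimap9 is less studied.

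All 8 genes lie next to each other on chromosome 6, within 123.7 kb of the mouse genome (GRCm38.p6, the RefSeq version of mm10; chr6:48647186-48770851). In ascending position they are Gimap8, Gimap9, Gimap4, Gimap6, Gimap7, Gimap1, Gimap5 and Gimap3. Gimap6 and Gimap3 are on the reverse strand and the others on the forward strand. RefSeq places 10 genes in this interval, the other two being the pseudogene Gm44262 and the long non-coding RNA Gm46958, which overlaps Gimap9. The shortest gap between neighbouring members, 2401 bp, separates Gimap1 from Gimap5. Some transcript sequence is shared in the GENCODE annotation, whereas the study's methods name a RefSeq annotation for the naïve and activated cells. Of the 75-base stretches in Gimap3 transcripts, 3.32% also occur in Gimap5 transcripts, and 8.68% of those in Gimap5 occur in transcripts of another gene, either Gimap3 or the annotated gene Gm28053. For Gimap1 the share was 7.86%, with Gm28053, Gimap1os and Gm10310, none of which is among the 10 RefSeq genes above. It was 0.528% for Gimap7 and 0 for the other 4 members. Whether reads from such stretches were split, dropped or counted on one strand only is not given in the sources used here. The levels of Gimap3 and Gimap5 carry that uncertainty. So does the level of Gimap1 if the annotation used for counting held the genes named with it.

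RefSeq promoter windows (300 bases each, mostly upstream of a start site, GRCm38.p6) were found for all 8 members, 9 windows in all since Gimap8 has 2. They were searched on both strands for 6 short motifs. The TTCNNNGAA motif of STAT factors, which act below the IL-2 receptor, occurred in 4 of the 9 windows (Gimap3, Gimap6, Gimap7 and Gimap8) and in 8.30% of all 32851 windows. The forkhead motif GTAAACA, which FOXO factors can bind, occurred in Gimap3 alone, against 3.65% of all windows. The KLF motif CACCC was in 6 of the 9 windows, covering Gimap3, Gimap4, Gimap5, Gimap8 and Gimap9, against 57.5% of all windows. The 2 Gimap8 windows overlap and share a CACCC match, so they are not separate observations. The RUNX motif TGTGGT was in the windows of Gimap1, Gimap4 and Gimap7 (16.8% of all) and the TCF/LEF motif CTTTGA in those of Gimap4 and Gimap7 (16.0% of all), where in Gimap7 it lies inside the STAT match. The ETS motif CCGGAA, present in 14.9% of all windows, was in none. The letters are a description and no binding was measured. The windows of 4 members are printed, since these members gave the largest and the smallest differences below: Gimap7 (chr6:48718371-48718670, forward strand) and Gimap3 (chr6:48770802-48771101, reverse strand) with the largest rises under PI3Kdi, Gimap6 (chr6:48708195-48708494, reverse strand) with the largest rise without IL-2, and Gimap1 (chr6:48738797-48739096, forward strand) with the smallest difference under PI3Kdi. They read 5′ to 3′ along the gene, and capitals mark every motif match on either strand.
Gimap7: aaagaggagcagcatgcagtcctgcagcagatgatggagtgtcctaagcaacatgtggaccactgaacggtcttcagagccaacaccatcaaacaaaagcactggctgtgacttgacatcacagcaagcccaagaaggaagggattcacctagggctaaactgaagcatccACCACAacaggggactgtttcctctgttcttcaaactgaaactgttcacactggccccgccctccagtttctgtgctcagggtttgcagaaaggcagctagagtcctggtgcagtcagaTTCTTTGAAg
Gimap3: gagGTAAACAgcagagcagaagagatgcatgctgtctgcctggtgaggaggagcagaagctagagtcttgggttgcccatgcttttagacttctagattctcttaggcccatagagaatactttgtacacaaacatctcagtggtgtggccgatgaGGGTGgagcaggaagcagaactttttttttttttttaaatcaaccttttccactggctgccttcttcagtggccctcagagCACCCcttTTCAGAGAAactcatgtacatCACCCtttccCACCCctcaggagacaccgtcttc
Gimap6: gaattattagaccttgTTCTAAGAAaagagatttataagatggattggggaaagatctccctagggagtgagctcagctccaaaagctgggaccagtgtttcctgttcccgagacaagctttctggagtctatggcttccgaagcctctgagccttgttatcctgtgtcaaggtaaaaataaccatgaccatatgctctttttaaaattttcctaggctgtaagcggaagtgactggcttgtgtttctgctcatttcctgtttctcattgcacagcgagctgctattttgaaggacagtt
Gimap1: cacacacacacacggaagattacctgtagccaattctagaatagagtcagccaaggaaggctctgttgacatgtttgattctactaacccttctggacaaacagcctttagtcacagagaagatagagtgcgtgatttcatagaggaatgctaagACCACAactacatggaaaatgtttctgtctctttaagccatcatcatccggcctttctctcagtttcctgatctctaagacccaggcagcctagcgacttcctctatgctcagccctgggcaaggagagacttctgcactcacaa

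The deposited values are FPKM (fragments scaled by exon length and by library size), which are relative within a library. The 2 tables were normalised separately, so differences were tested only within each of them. Reads per library are not given, and the depth is unknown. Between replicates of a group, Pearson r of log2(FPKM + 0.1) across genes was 0.983 to 0.995. The summed FPKM of 5 CD8 T cell markers (Cd3d, Cd3e, Cd3g, Cd8a and Cd8b1) was 3189 to 3482 in naïve, 637 to 685 in TCR, 811 to 953 in TCR + PI3Kdi, 971 to 1042 in CTL with IL-2 and 1876 to 2069 in CTL without IL-2. These markers were thus high in all 15 libraries, and their sum ranked the groups of each table in the same order as the summed Gimap FPKM. Of 5 B cell markers, 4 were listed in the CD8 data and summed to 20.9 to 26.3 FPKM in naïve, 4.63 to 7.12 in TCR and 3.30 to 4.58 in TCR + PI3Kdi, most of the naïve signal being Cd79b (19.6 to 21.8). In CTL, only Cd79b of these was listed, at 2.74 to 6.30 with IL-2 and 10.8 to 20.6 without. In the CD8 data the listed markers of myeloid (Itgam), dendritic (Zbtb46), CD4 T (Zbtb7b) and gamma delta T cells (Sox13) did not exceed 2.40 FPKM, and no gene of the NK or erythroid lists was listed. The CD4 gene itself was not listed there. In CTL, the CD4 T cell list (Cd4 and Zbtb7b) summed to 16.8 to 21.4 with IL-2 and 25.6 to 30.2 without. Most of this sum was Zbtb7b, while Cd4 was 0.05 to 0.39 with IL-2 and 0.92 to 1.92 without. For 2 of 3 NK genes the sum was 2.19 to 3.55 with IL-2 and 3.69 to 5.57 without. Itgam was 0.20 to 0.39 with IL-2 and 3.89 to 4.46 without, and Itgax 0.21 to 0.39 and 3.67 to 5.17. Of 3 stromal genes only Pecam1, which naïve T cells also express, was listed, and its levels of 55.6 to 66.0 in naïve, 2.25 to 3.49 in TCR, 4.73 to 8.20 in TCR + PI3Kdi, 22.5 to 30.5 in CTL with IL-2 and 50.3 to 62.4 without moved with the Gimap sum. The part of other cells in the Gimap values was not tested. In bulk RNA, a change in the make-up of the cells and a change of RNA per cell cannot be told apart.

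Naïve cells held the Gimap mRNA at high levels. Summed over the 8 genes, FPKM were 1584.6, 1523.9 and 1582.0 in the 3 naïve libraries, a mean of 1563.5 ± 34.3 (SD, n = 3). Gimap4 (390 ± 23.0), Gimap3 (378 ± 27.6) and Gimap6 (368 ± 14.4 FPKM; SD, n = 3 each) stood at the top, each above about 98.7% of the genes in the data, and the libraries of neighbours among these 3 overlapped. Gimap8 (117 ± 8.15) and Gimap1 (111 ± 7.04) followed, also overlapping. Gimap9 (88.4 ± 1.89), Gimap5 (66.0 ± 2.22) and Gimap7 (44.8 ± 2.63) were lowest and did not overlap. The most and least abundant members thus differed by a large margin, and Gimap4, Gimap3 and Gimap6 made up 25.0%, 24.1% and 23.5% of the summed FPKM.

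**Figure D1:**
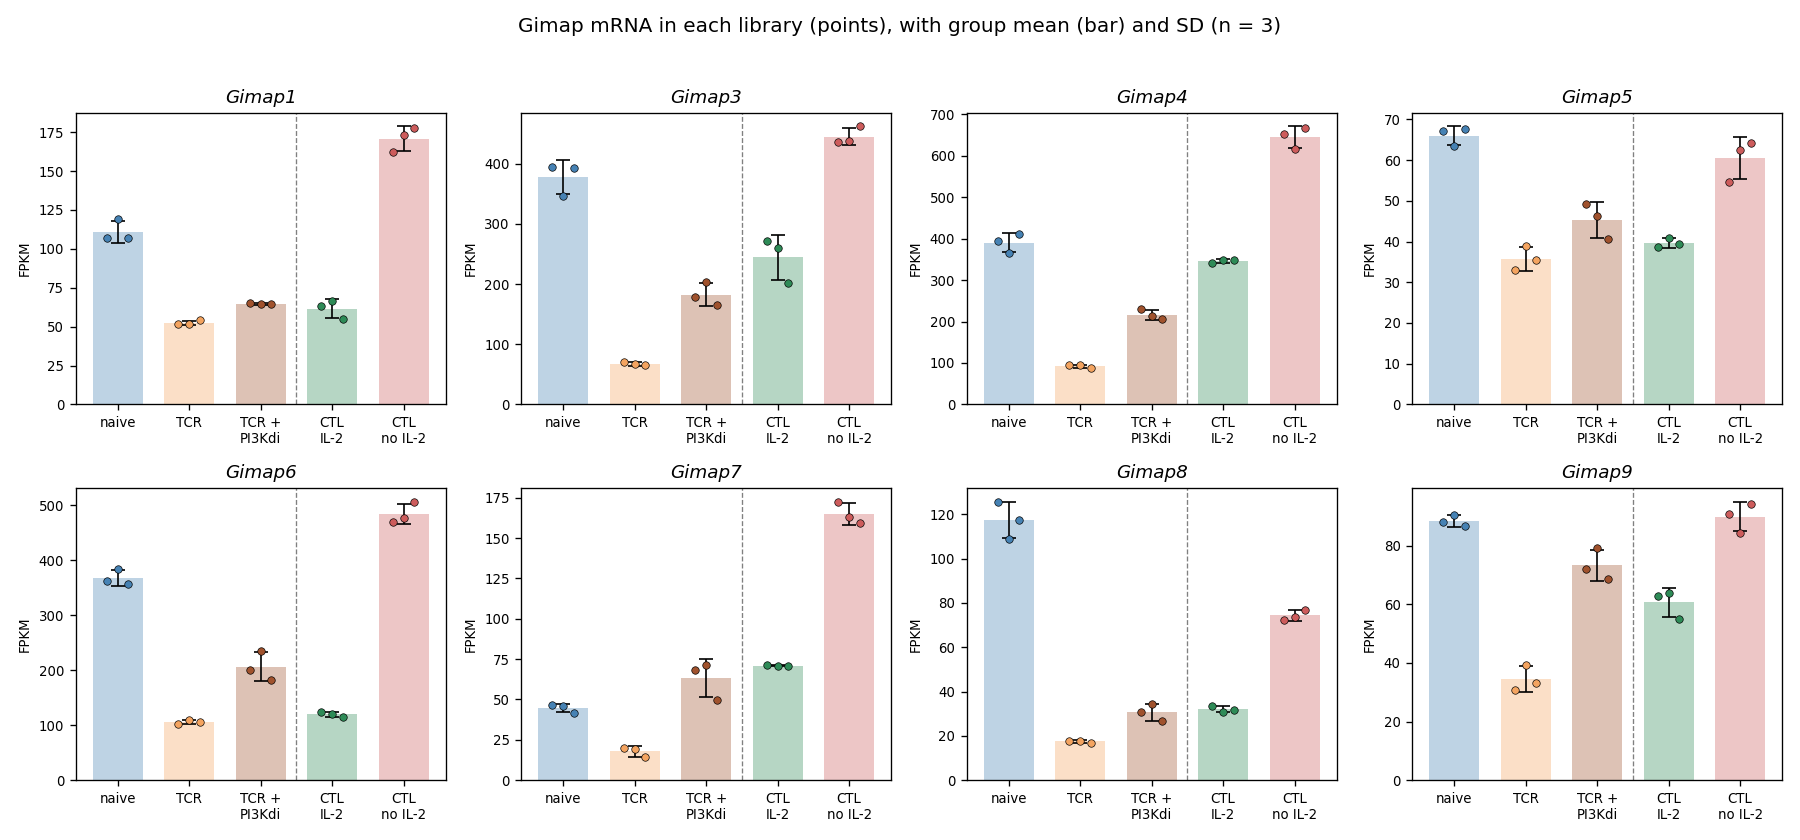
Each panel plots 1 Gimap gene on a linear axis of FPKM that starts at 0. Points are the 3 libraries of a group, bars the group mean and error bars the SD, and the dashed line divides the CD8 data from the CTL data, which were normalised separately. Naïve libraries lie above TCR libraries in all 8 panels, and CTL libraries without IL-2 above those with IL-2 in all 8.

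Gimap mRNA were lower in TCR cells than in naïve cells. The 2 groups differ by the peptide, IL-2, IL-12, the 24 h of culture and the sort gate, whose parts cannot be told apart. Differences were tested with limma on log2(FPKM + 0.1), and a gene was called at a Benjamini-Hochberg adjusted p under 0.05 with a change above 2-fold. In TCR against naïve cells 7 of the 8 members were called lower and 0 higher, where 23.7% of all 11262 genes were called lower and 25.0% higher. All 8 had an adjusted p under 0.05 (39.8% of all genes on the lower side). The libraries of the 2 groups did not overlap for any of the 8, as was so on the lower side for 40.0% of all genes. The median log2 fold change of the members was -1.59, against 0.01 over all genes. Summed Gimap FPKM were 419.1, 438.3 and 411.1 in the TCR libraries (mean 422.9 ± 14.0, SD, n = 3).

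Gimap8 and Gimap3 fell furthest. Gimap8 FPKM were 125, 109 and 118 in the naïve libraries and 17.8, 17.9 and 16.7 in the TCR libraries. Gimap3 FPKM were 394, 346 and 393 in naïve and 70.2, 66.7 and 64.7 in TCR. No TCR library came near a naïve library for either gene. The log2 fold change was -2.74 (SE 0.10, limma adjusted p = 7.3e-10) for Gimap8 and -2.49 (SE 0.093, adjusted p = 8.2e-10) for Gimap3. Gimap4, the gene linked to T cell death, gave 395, 366 and 411 FPKM in naïve and 94.2, 94.7 and 88.1 in TCR, a log2 fold change of -2.08 (SE 0.080, limma adjusted p = 1.0e-09). Gimap6 gave 362, 384 and 357 in naïve and 102, 109.7 and 105 in TCR, a log2 fold change of -1.80 (SE 0.096, limma adjusted p = 1.2e-08). These 4 genes, which include the 3 most abundant ones, each fell by more than 3-fold.

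The other 4 members differed less. Gimap9 FPKM were 88.2, 90.4 and 86.7 in naïve and 30.7, 39.4 and 33.1 in TCR (log2 fold change -1.37, SE 0.098, limma adjusted p = 1.5e-07). Gimap7 FPKM were 46.6, 46.2 and 41.8 in naïve and 19.9, 19.3 and 14.1 in TCR (log2 fold change -1.34, SE 0.16, limma adjusted p = 9.0e-06). Gimap1 FPKM were 107, 119 and 107 in naïve and 51.7, 51.9 and 54.0 in TCR (log2 fold change -1.07, SE 0.072, limma adjusted p = 8.4e-08). All the naïve libraries lay above all the TCR libraries for these genes, but Gimap1 was just past the 2-fold limit, and with the libraries scaled to a common median its value was -0.99 and it was no longer called. Gimap5, whose loss causes lymphopenia, differed least and missed the limit. Its FPKM were 67.0, 63.5 and 67.6 in naïve and 33.0, 38.8 and 35.5 in TCR, a log2 fold change of -0.88 (SE 0.093, limma adjusted p = 3.9e-06).

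The unequal falls changed the order of the members. In TCR cells Gimap6 (105 ± 4.03 FPKM) was above Gimap4 (92.3 ± 3.68), Gimap3 (67.2 ± 2.77) and Gimap1 (52.5 ± 1.30), with no overlap between neighbours (SD, n = 3 each). Gimap5 (35.8 ± 2.90) and Gimap9 (34.4 ± 4.47) overlapped, as did Gimap7 (17.8 ± 3.19) and Gimap8 (17.5 ± 0.665). Gimap8 thus went from the fourth place among the members to the last. Its share of the summed Gimap FPKM was 7.50% in naïve and 4.13% in TCR. Gimap1 went the other way, from 7.10% to 12.4%, and Gimap5 from 4.22% to 8.46%.

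With the p110δ inhibitor present during activation, Gimap mRNA were higher than in TCR cells. In TCR + PI3Kdi against TCR, 4 of the 8 members were called higher (Gimap7, Gimap3, Gimap4 and Gimap9) and 0 lower, where 3.04% of all 11262 genes were called higher and 2.10% lower. Without a limit on the fold change, all 8 had an adjusted p under 0.05 and a higher level, against 9.35% of all genes. The libraries of all 8 did not overlap, against 18.1% of all genes on the higher side. The median log2 fold change was 1.03 for the members and -0.01 for all genes. The TCR libraries are shared by this comparison and that with naïve cells, so a low TCR library moves both.

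Gimap7 showed the largest rise. Its FPKM were 68.4, 71.2 and 49.7 in the TCR + PI3Kdi libraries, each well above the 14.1 to 19.9 of the TCR libraries. The log2 fold change was 1.82 (SE 0.16, limma adjusted p = 3.1e-05), and within the 3 same-numbered pairs the ratio was 3.55 ± 0.123 (SD, n = 3). Replicate 3 was lowest in both groups, so the ratio varied less than the levels. Gimap3 FPKM were 178, 203 and 166, a log2 fold change of 1.43 (SE 0.093, limma adjusted p = 6.6e-06). Gimap4 FPKM were 230.1, 212 and 205, a log2 fold change of 1.22 (SE 0.080, limma adjusted p = 6.9e-06). Gimap9 FPKM were 72.0, 79.2 and 68.6, a log2 fold change of 1.09 (SE 0.098, limma adjusted p = 4.3e-05). In all of these the lowest library with the inhibitor was above the highest without.

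Gimap6, the member tied to autophagy, had 201, 235 and 182 FPKM with the inhibitor, and its log2 fold change of 0.96 (SE 0.096, limma adjusted p = 8.4e-05) was just under the limit. Without replicate 3 it was 1.04 and was called, which made 5 members called. Gimap8 FPKM were 30.7, 34.4 and 26.6, a log2 fold change of 0.80 (SE 0.10, limma adjusted p = 3.9e-04). Gimap5 and Gimap1 differed least. Gimap5 FPKM were 49.2, 46.2 and 40.5 (log2 fold change 0.34, SE 0.093, limma adjusted p = 0.029), and its nearest TCR library was 38.8. Gimap1 FPKM were 65.2, 64.3 and 64.4 (log2 fold change 0.30, SE 0.072, limma adjusted p = 0.017), against at most 54.0 in TCR. Leaving out any 1 replicate raised the adjusted p of both above 0.05, to between 0.056 and 0.22 for Gimap5 and between 0.082 and 0.17 for Gimap1. Fitting only the groups compared gave 0.059 and leaving out the intensity trend 0.058 for Gimap5.

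Gimap mRNA with the inhibitor lay between the TCR and the naïve level for 7 members and above naïve for Gimap7. Against naïve, 2 of the 8 were called lower, Gimap8 (log2 fold change -1.94, SE 0.10, limma adjusted p = 1.4e-08) and Gimap3 (-1.05, SE 0.093, adjusted p = 1.1e-06), where 21.3% of all genes were called lower and 23.6% higher. Gimap3 was no longer called without replicate 3 (-0.96) or with median scaling (-0.97). The naïve libraries lay above those with the inhibitor, without overlap, in 7 members (41.0% of all genes on the lower side), and these 7 had an adjusted p under 0.05 (39.0% of all genes). Gimap7 was the exception. Its 3 values with the inhibitor, 49.7 and above, exceeded the highest naïve value of 46.6, with a log2 fold change of 0.48 (SE 0.16, limma adjusted p = 0.015). Of all genes, 41.9% did not overlap on the higher side and 40.1% had an adjusted p under 0.05 there. That adjusted p was 0.080 without replicate 1 and 0.12 without replicate 2. Gimap9 came nearest to naïve from below (-0.27, SE 0.098, limma adjusted p = 0.024), and its adjusted p was 0.074 without replicate 1, 0.13 without replicate 3 and 0.086 with median scaling.

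The fall on activation that was absent with the inhibitor was computed within each pool, as the difference between the inhibitor and TCR levels over that between naïve and TCR. It was smallest for Gimap8 (13.3% ± 4.29) and Gimap1 (20.9% ± 3.26). Gimap5 (31.1% ± 16.1), Gimap3 (37.6% ± 9.80), Gimap6 (38.1% ± 7.42) and Gimap4 (41.6% ± 4.77) were intermediate, with spreads that overlapped. Gimap9 gave 72.0% ± 5.85 and Gimap7 168% ± 34.7 (SD, n = 3 each). These are values on the linear FPKM scale, given with no test.

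**Figure D2:**
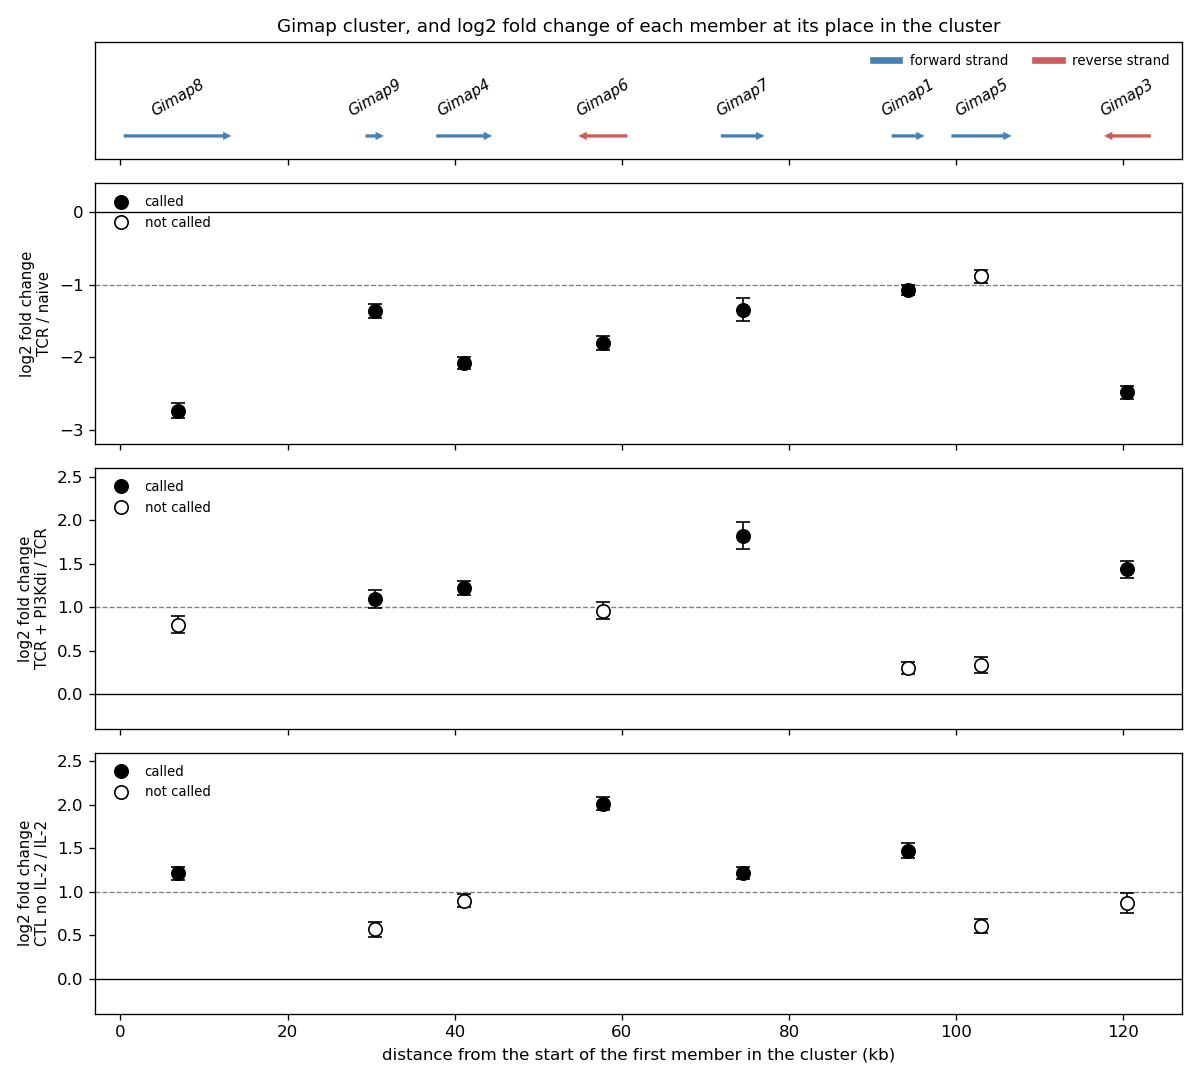
The top panel draws the 8 genes as arrows along the strand, by distance in kb from the start of Gimap8, and the panels under it give the log2 fold change of each gene (points, with SE as error bars) at its place. Filled points were called and open points were not, and dashed lines mark 2-fold. Gimap1 and Gimap5, neighbours on the forward strand, have the smallest changes in the upper and middle comparisons, while Gimap6 has the largest change without IL-2 at 2.02.

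In CTL, Gimap mRNA were higher without IL-2. Of the 8 members, 4 (Gimap6, Gimap1, Gimap7 and Gimap8) were called higher in CTL without IL-2 against CTL with IL-2 and 0 lower, where 14.3% of all 11211 genes were called higher and 13.9% lower. All 8 had an adjusted p under 0.05 when no limit on the fold change was set (35.2% of all genes). All 8 also showed no overlap between the groups (37.6% of all genes on the higher side). The median log2 fold change was 1.05 for the members and 0.00 for all genes. Summed Gimap FPKM were 1005.9, 1002.9 and 915.9 with IL-2 (mean 974.9 ± 51.1) and 2109.2, 2086.3 and 2205.1 without (mean 2133.5 ± 63.0; SD, n = 3 each).

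Gimap6 rose most. Its FPKM were 124, 121 and 114 in the libraries with IL-2 and 469, 476 and 505 in those without, a log2 fold change of 2.02 (SE 0.074, limma adjusted p = 1.2e-07). Gimap1 FPKM were 63.3, 66.5 and 54.8 with IL-2 and 162, 173 and 177 without, a log2 fold change of 1.48 (SE 0.089, limma adjusted p = 9.1e-07). For both, the groups were far apart, and Gimap1 had been among the members that differed least with PI3Kdi. Gimap7 FPKM were 71.2, 70.9 and 70.7 with IL-2 and 172, 163 and 159 without, a log2 fold change of 1.21 (SE 0.069, limma adjusted p = 6.8e-07). Gimap8 FPKM were 33.4, 30.8 and 31.9 with IL-2 and 72.3, 73.8 and 77.0 without, a log2 fold change of 1.21 (SE 0.073, limma adjusted p = 9.0e-07). These 2 genes gave almost equal changes, while their levels differed.

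The other 4 members stayed under the 2-fold limit. Gimap4 FPKM were 341, 349 and 347 with IL-2 and 652, 616 and 666 without (log2 fold change 0.90, SE 0.076, limma adjusted p = 5.7e-06). Gimap3 FPKM were 271, 261 and 202 with IL-2 and 436, 438 and 462 without (log2 fold change 0.87, SE 0.11, limma adjusted p = 8.8e-05). Both were already abundant with IL-2, and Gimap3 varied most among the IL-2 libraries, replicate 3 being low. Gimap5 FPKM were 38.6, 40.9 and 39.3 with IL-2 and 54.7, 62.5 and 64.2 without (log2 fold change 0.61, SE 0.083, limma adjusted p = 1.3e-04). Gimap9 FPKM were 63.0, 63.9 and 55.1 with IL-2 and 90.9, 84.4 and 94.2 without (log2 fold change 0.57, SE 0.085, limma adjusted p = 2.3e-04). The highest library with IL-2 was still below the lowest library without it for these genes.

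At the 2-fold limit, different members were called with PI3Kdi and without IL-2. The difference between the 2 experiments was not tested, because the tables were normalised separately. Gimap7 alone of the members was called higher both with PI3Kdi and without IL-2. Over all genes, 3.04% were called higher with PI3Kdi and 14.3% without IL-2, and the share called in both was not computed. Gimap5 was called in neither. Gimap3, Gimap4 and Gimap9 passed the limit with PI3Kdi and not without IL-2, and Gimap6, Gimap1 and Gimap8 the reverse. Several lay just under it, namely Gimap6 with PI3Kdi (0.96) and Gimap4 (0.90) and Gimap3 (0.87) without IL-2, and with no limit on the fold change all 8 were higher in both. Within same-numbered pairs, Gimap6 gave a ratio of 1.95 ± 0.201 for TCR + PI3Kdi over TCR and 4.05 ± 0.321 for CTL without over with IL-2. Gimap1 gave 1.23 ± 0.0355 and 2.80 ± 0.378, and Gimap9 gave 2.14 ± 0.179 and 1.49 ± 0.199 (SD, n = 3 each). The CTL pairs were matched by replicate number only, whereas the CD8 pools were divided between the conditions.

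The make-up of the family differed between the groups. Gimap6 was 23.5% ± 1.45 of the summed FPKM in naïve, 24.9% ± 0.619 in TCR, 23.3% ± 1.31 in TCR + PI3Kdi, 12.3% ± 0.234 in CTL with IL-2 and 22.7% ± 0.358 in CTL without IL-2. Gimap4 was 35.5% ± 2.11 in CTL with IL-2 and 30.2% ± 0.693 without. Gimap7 was the smallest share in naïve cells, 2.87% ± 0.201, and was 4.20% ± 0.684 in TCR, 7.12% ± 0.810 in TCR + PI3Kdi, 7.29% ± 0.376 in CTL with IL-2 and 7.73% ± 0.474 in CTL without (SD, n = 3 each). In CTL with IL-2 the order was Gimap4, Gimap3, Gimap6, Gimap7, Gimap1, Gimap9, Gimap5 and Gimap8, only Gimap1 and Gimap9 overlapping. Without IL-2 Gimap6 stood above Gimap3, and Gimap5 was last. With PI3Kdi the order was Gimap4, Gimap6, Gimap3, Gimap9, Gimap1, Gimap7, Gimap5 and Gimap8, where Gimap4 and Gimap6, Gimap6 and Gimap3, and Gimap1 and Gimap7 overlapped.

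**Figure D3:**
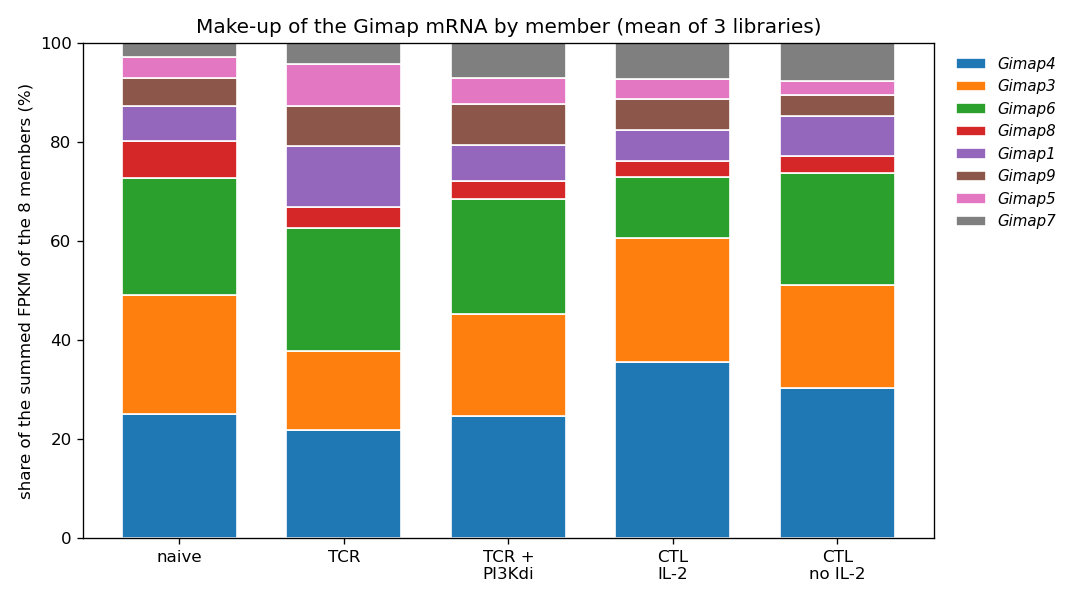
Stacked bars give the share (%) of each member in the summed FPKM of the 8 genes, as the mean of 3 libraries per group. Gimap6 takes 12.3% in CTL with IL-2 against 22.7% to 24.9% in the other groups, and Gimap7 takes 2.87% in naïve and between 7.12% and 7.73% in the last 3 groups.

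The genes beside the cluster were examined as a reference for position. Of 11 neighbours, 8 were listed. In TCR + PI3Kdi against TCR, limma called 0 of them, with log2 fold changes from -0.41 to 0.38 and 1 gene at an unadjusted p under 0.05. On activation 3 of 8 were called higher (25.0% of all genes) and 4 lower (23.7%), led by Repin1 (log2 fold change 3.38), Atg9b (2.99), Kcnh2 (-2.42) and Tmem176a (-1.68). These were low mRNA, with a mean of 0.22 FPKM for Atg9b and 0.733 for Repin1 in naïve cells and 0.453 for Kcnh2 and 0.413 for Tmem176a in TCR cells. Without IL-2, 2 were called higher (14.3% of all genes), the potassium channel gene Kcnh2 (1.77, from a mean of 0.193 FPKM with IL-2) and Lrrc61 (1.52), and 1 lower (13.9% of all genes), Atg9b (-1.06).

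Genes whose products are reported to act with GIMAP proteins, mainly BCL2 relatives and GABARAP/LC3 autophagy proteins, were all listed. Of 14, 2 were called higher and 4 lower on activation, near the shares over all genes of 25.0% and 23.7%, led by the survival gene Bcl2l1 (log2 fold change 4.23) and by Prkcq (-1.99). With PI3Kdi, 1 was called higher and 1 lower, against 3.04% and 2.10% of all genes. They were the survival gene Bcl2 (1.00), just past the 2-fold limit, and Bcl2l1 (-1.51). Without IL-2, 4 were called higher and 2 lower, against 14.3% and 13.9% of all genes. The largest were the pro-death gene Bcl2l11 (1.66), Gabarapl2 (1.497), whose product binds GIMAP6, and Bcl2l1 (-2.89).

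Genes of the naïve state were mostly lower on activation and all higher without IL-2. Of 16, 12 were called lower in TCR against naïve (23.7% of all genes) and 0 higher. With PI3Kdi, 4 were called higher (3.04% of all genes) and 0 lower. They included the transcription factor Klf2 (log2 fold change 4.28), Pdcd4 (1.86) and the IL-7 receptor Il7r (1.74), and the list's median was 0.39 against 1.03 for the Gimap members. Without IL-2 all 16 were called higher (14.3% of all genes), with a median of 2.75 against 1.05 for the members. Tcf7 (5.32), S1pr1 (3.98) and Klf2 (3.76) led.

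Genes of the interferon-inducible GTP-binding proteins (guanylate-binding, immunity-related and Mx proteins), which lie outside the Gimap cluster, were examined as other guanine nucleotide-binding families of immune cells. On activation 9 of 15 were called lower and 1 higher, against 23.7% and 25.0% of all genes. With PI3Kdi 11 of 15 were called higher (3.04% of all genes) and 0 lower, among them Gbp2 (log2 fold change 3.70) and Iigp1 (1.97). Without IL-2, of 14 listed, 0 were called higher and 3 lower (13.9% of all genes), while 11 were not called. The 3 were Iigp1 (-2.06), Gbp4 (-1.42) and Mx1 (-1.01).

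The genes whose pattern was most like the family were found by the root mean square difference from the median centred log2 level of the 8 members, with no test. Over the 9 libraries of the CD8 data these were Ptpn22 (0.158), D19Wsu162e (0.164), Arhgap18 (0.168), AI504432 (0.185) and Arid4a (0.191), in log2 units. Among members, Gimap6 was nearest to that median (0.0995) and Gimap8 (0.557) and Gimap7 (0.504) farthest. Of the 10064 non-members with a mean of at least 1 FPKM, 0 were nearer than Gimap6, 1848 nearer than Gimap7 and 2491 nearer than Gimap8. The members set this median and the non-members did not, so a member can lie near it by construction. Ptpn22, a phosphatase that restrains TCR signalling, had 98.8 ± 10.0 FPKM in naïve, 28.3 ± 3.37 in TCR and 67.6 ± 11.5 in TCR + PI3Kdi (SD, n = 3 each). Over the 6 CTL libraries they were Wdr13 (0.0398), Lrrcc1 (0.0430), Itm2b (0.0438), Tmc6 (0.0477) and Pnrc2 (0.0491). There Gimap8 (0.0898) and Gimap7 (0.0909) were the nearest members and Gimap6 (0.478) the farthest. Of 10255 non-members, 87 were nearer than Gimap8 and 3834 nearer than Gimap6, so many other genes shared this pattern.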

How the data were processed

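The authors deposited FPKM for each library in 2 tables, of 9 CD8 and 6 CTL libraries. Per the labels and the study's methods, reads from stranded mRNA libraries were aligned with STAR 2.5.2b to mm10, counted per gene with Subread 1.5.1, filtered for low counts, scaled by the TMM method of edgeR and corrected for exon length. The CTL table was assumed to have been made in the same way. Values have 2 decimals, and 1039 blank cells of the CD8 table, none in a Gimap gene, were read as 0. Raw counts and read totals were not used here, so the precision rests on the 3 replicates of each group. Whether counting used strand is not given in the sources used here.

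CTL were grouped by title and growth protocol, because the treatment labels of replicates 2 and 3 kept in IL-2 name other interleukins. The labels call the CTL libraries biological replicates, and the study's methods describe P14 CTL cultures as 3 replicates from 3 mice, though not for this IL-2 experiment. If these shared mice, their p-values measure technical spread.

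Values were fitted as log2(FPKM + 0.1) with limma 3.58.1 in R 4.3.3, with an intensity trend, each table on its own and over all its genes, and fold changes are on that scale. Benjamini-Hochberg adjustment covered all genes of a table. Calls required an adjusted p under 0.05 and a fold change beyond 2 or 0.5. The fits were tested on simulated data with normal noise and log2 changes of 1.5 and 3, for 100 genes each. For TCR + PI3Kdi against TCR, 93 and 99 of these were called in the right direction. For CTL without against with IL-2, 90 and 100 were. Changes near the 2-fold limit, where several members lie, were not simulated. Python 3.11.15, pandas 2.3.3, numpy 2.4.6 and matplotlib 3.10.9 were used for the other steps.

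Each pool of the CD8 data was divided between the 3 conditions. Libraries with the same number were taken as pairs, in CTL on the number alone. Their deviations from the group means had a mean Pearson r of 0.33 across 10072 genes for TCR + PI3Kdi and TCR, and 0.18 across 10263 genes for the CTL groups, but -0.03 for TCR and naïve and -0.00 for TCR + PI3Kdi and naïve. Genes are not independent replicates.

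All 8 members were named in every comparison. Of each other list (genes beside the cluster, partners, naïve-state genes, other GTP-binding proteins, cell type markers), at most 4 genes with the largest changes among those called were named, and the 5 genes of each table most like the family. The members and lists were chosen with earlier results of these data known. Protein sequences were not analysed here. Some members of the gene lists are counted but not reported here by name. Alternatives were a pseudocount of 1 or 0.01, a mean of at least 1 FPKM, median scaling, a replicate block, no intensity trend, only the groups compared, leaving out each replicate, and no limit or a limit of 1.5 on the fold change.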

Additional observations from a re-analysis of the deposited data

How the results depend on the processing

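Of 376 alternative values of a member's log2 fold change, 0 changed direction, 348 stayed on the same side of the threshold, 25 passed it newly and 3 no longer passed it. The replicate block, the intensity trend, the groups fitted, the mean FPKM filter and the fold limits leave the fold change unchanged. Those settings could not change its direction. The new passes came from a lower or absent fold limit, except Gimap6 in TCR + PI3Kdi against TCR without replicate 3 (1.04). The 3 that no longer passed were Gimap1 in TCR against naïve (-0.99, median scaling) and Gimap3 in TCR + PI3Kdi against naïve (-0.97, median scaling, and -0.96 without replicate 3). With the replicate block the counts were 7 members lower in TCR against naïve, 4 higher with PI3Kdi, 2 lower with PI3Kdi against naïve and 4 higher without IL-2. These were the same as without the block, and the block changed no member's call. Without the block, the shares over all genes were 23.7%, 3.04%, 21.3% and 14.3% in that order, and with it they are not given.

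Without a limit on the fold change, 8 members were called higher with PI3Kdi against TCR (9.35% of all genes). With PI3Kdi against naïve, 7 were called lower (39.0% of all genes) and 1 higher (40.1%). In CTL without IL-2, 8 were called higher (35.2% of all genes). With a limit of 1.5 there were 6 higher with PI3Kdi against TCR (6.10% of all genes), 5 lower with PI3Kdi against naïve (31.0%) and 7 higher without IL-2 (25.2%). With median scaling, 1 member was called lower with PI3Kdi against naïve, as were 2222 of all 11262 genes, and the summed Gimap FPKM in naïve was 1506.6. Leaving out 1 replicate, for which no share over all genes is given, gave 1 to 2 members lower with PI3Kdi against naïve. The 1 was without replicate 3. Such fits gave 4 to 5 members higher with PI3Kdi against TCR. The cause of these differences was not tested. The depth of the libraries is unknown, and no limit of detection was set.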
